A study of Homo sapiens with 6 samples.

Results

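The BCL2 family genes described here were 10 regulators of the mitochondrial route to cell death, PMAIP1, HRK, BBC3, BCL2L11, BID, BAD, BAX, BAK1, MCL1 and BCL2L1. They were taken by symbol: every probe set that the platform annotation lists for 1 of these symbols alone was kept, which gave 41 of 44988 probe sets with 1 symbol and 10 of 18132 genes. Expression was measured on 6 Affymetrix 3′ arrays of ARPE-19, an established line of human retinal pigment epithelial cells. The 3 GFP arrays held RNA of cells transfected with a GFP plasmid and served as the control, and the 3 SATalpha arrays held RNA of cells transfected with a GFP plasmid that carries satellite alpha, a tandem repeat found at human centromeres. Both groups received 2.5 µg of plasmid per well of 6-well plates and were the same line in the same medium. Every well was thus transfected, and both plasmids carried GFP. The labels do not say how long after transfection RNA was taken, what share of cells took up plasmid, or whether the 3 wells of a group were separate cultures, so the spread behind each p-value is that of the wells at hand and may be technical. Plasmid transcripts were not analysed here.

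Proteins of the BCL2 family decide whether the outer mitochondrial membrane is opened. The effectors BAX and BAK1 form pores in it, anti-apoptotic members such as MCL1 and BCL2L1 (BCL-XL) hold the effectors in check, and BH3-only members bind the anti-apoptotic proteins or the effectors and tip the balance towards cell death. Many members are controlled through their protein turnover, phosphorylation or cleavage, none of which an RNA array reads. Retinal pigment epithelium is a layer of long-lived, non-dividing cells, whereas ARPE-19 divides in culture.

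The 6 arrays had medians of 5.29 to 5.32 (log2), and the 3′ control probe sets of GAPDH exceeded the 5′ ones by 0.393 on average in both groups (exact permutation p = 1, two-sided, and 3 against 3 arrays cannot give a p below 0.1). For ACTB this excess was larger, on average 2.06 in the GFP arrays and 2.01 in the SATalpha arrays (exact permutation p = 0.6, two-sided). Simple-epithelial genes were bright, from 11.00 to 12.11, with EZR not past the threshold while KRT8 and KRT18 fell by 0.13 and 0.21 (limma adjusted p = 0.0266 and 0.000675). The other 7 probe sets of KRT8 ran from -0.12 to 0.30, so its direction depended on the probe set, and the other probe set of KRT18 differed by -0.09. Of 12 retinal pigment epithelium genes found, OTX2 (8.34) and MITF (8.11) were measured well. RPE65 (3.41), TYRP1 (3.51), RLBP1 (4.14), LRAT (4.24) and BEST1 (4.62) lay below the floor of tested genes (5.19), and TTR lay at it. These were not tested, and the 6 genes tested did not pass. Of 5 leukocyte markers found, PTPRC (2.37), CD14 (3.57), ITGAM (4.02) and CD3E (4.88) lay below the floor, whereas CD68, a lysosomal protein of macrophages that other cells also make, stood at 8.22 and did not pass (log2 difference -0.06, limma adjusted p = 0.445). The 4 fibroblast markers stood between 2.04 and 3.82, all below the floor. The endothelial markers KDR (5.47), VWF (5.35) and PECAM1 (5.34) stood just above it, and CDH5 (3.34) below. Of melanocyte and photoreceptor markers, SOX10 (5.49) and CRX (5.58) lay just above it, and MLANA (3.76) and NRL (4.66) below. None of these tested markers passed. The part of KRT8 and KRT18, which moved with the groups, in the results on the BCL2 family was not tested.

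With satellite alpha, PMAIP1, HRK and MCL1 were higher and no member was lower when each gene was read by its brightest probe set. Of the 10 members, all of which were tested, 3 rose, 0 fell and 7 did not pass limma's adjusted p of 0.05. The count of lower members was also 0 at limma's unadjusted p under 0.05. In an unmoderated test it was 0 after adjustment and 1, BCL2L1, at an unadjusted p under 0.05. Among all 10879 tested genes 20.8% passed, 7.72% as higher and 13% as lower. The groups did not overlap in 4 of the 10 members (the 3 that rose, and BCL2L1, whose 3 SATalpha values were lower), a share of 40% against 37.6% of all tested genes. The median log2 difference, SATalpha minus GFP, was 0.08 over the members and -0.02 over all tested genes, and the median size of the difference was 0.0888 over the members and 0.0946 over all tested genes. The median size was thus near that of all tested genes, and the largest differences lay in single members. In this bulk RNA, a change in some cells and a smaller change in all cells cannot be told apart.

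**Figure D1:**
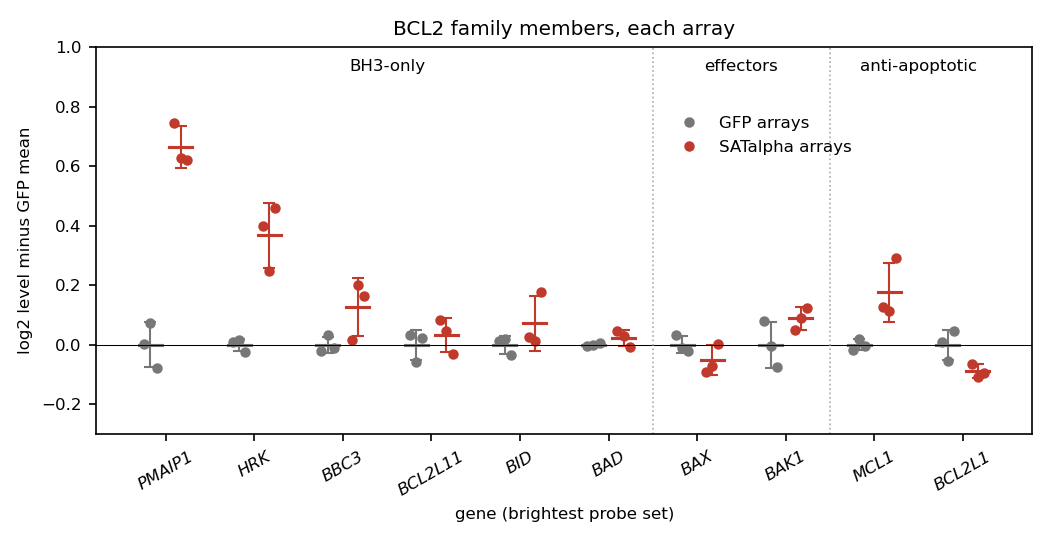
Log2 level of each member's brightest probe set in each array, minus the mean of its 3 GFP arrays; horizontal lines are group means and error bars are SD (n = 3 arrays). The 3 SATalpha points of PMAIP1, HRK and MCL1 lie above their 3 GFP points, those of BCL2L1 lie just below, and the points of the other members overlap between groups.

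The BH3-only members gave the largest and the smallest differences. PMAIP1 encodes NOXA, which binds MCL1 and promotes its degradation. Its brightest probe set (11724509_a_at) read 10.39, 10.46 and 10.31 on the log2 scale in the GFP arrays and 11.14, 11.02 and 11.01 in the SATalpha arrays. The lowest SATalpha array stood 0.548 above the highest GFP array. The log2 difference was 0.66 (SE 0.05, limma adjusted p = 3.74e-07), a fold of 1.59, which placed PMAIP1 at rank 20 of 10879 genes by size of increase. Only 0.818% of tested genes both passed and changed by at least 1.5-fold, and PMAIP1 was the 1 member to do so.

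The other PMAIP1 probe set (11724510_at) read 9.68, 9.62 and 9.67 with GFP and 10.34, 10.22 and 10.04 with satellite alpha. Here too all SATalpha arrays were above all GFP arrays, and the log2 difference was 0.54 (SE 0.06, limma adjusted p = 7.80e-05 over 29576 tested probe sets). The SATalpha arrays were more spread in this probe set (SD 0.15, n = 3) than the GFP arrays (SD 0.03, n = 3). Both probe sets passed whichever array was left out, with differences of 0.62 to 0.70 in the first and 0.47 to 0.62 in the second. In the unmoderated test over probe sets 11724510_at did not pass (adjusted p = 0.0638).

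HRK (harakiri) is a BH3-only protein best known from neurons, where it binds BCL2 and BCL2L1. Its single probe set read 8.27, 8.28 and 8.24 with GFP and 8.66, 8.51 and 8.73 with satellite alpha. The groups did not overlap, with a gap of 0.232, and the SATalpha arrays varied more (SD 0.11, n = 3) than the GFP arrays (SD 0.02, n = 3). The log2 difference was 0.37 (SE 0.06, limma adjusted p = 0.000532), a fold of 1.29. It passed whichever array was left out (0.32 to 0.43). With a variance taken from HRK alone, with no moderation across genes, the adjusted p was 0.0565.

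PMAIP1 and HRK were the members with the largest increases, and their promoters are shown for that reason, from 250 bases before to 50 bases after the annotated start (RefSeq, GRCh38.p14). PMAIP1 lies at chr18:59899746-59900045 on the plus strand and HRK at chr12:116881392-116881691 on the minus strand. Capitals mark matches, on either strand, to the GC box GGGCGG, the CRE half-site TGACG or the ATF4 composite element TGATGNAA.
PMAIP1: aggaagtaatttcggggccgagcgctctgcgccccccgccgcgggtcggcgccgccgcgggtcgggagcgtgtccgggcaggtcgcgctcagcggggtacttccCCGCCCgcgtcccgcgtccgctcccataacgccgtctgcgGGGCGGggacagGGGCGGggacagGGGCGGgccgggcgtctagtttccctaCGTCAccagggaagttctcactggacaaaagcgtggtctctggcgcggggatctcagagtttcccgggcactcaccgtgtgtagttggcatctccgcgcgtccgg
HRK: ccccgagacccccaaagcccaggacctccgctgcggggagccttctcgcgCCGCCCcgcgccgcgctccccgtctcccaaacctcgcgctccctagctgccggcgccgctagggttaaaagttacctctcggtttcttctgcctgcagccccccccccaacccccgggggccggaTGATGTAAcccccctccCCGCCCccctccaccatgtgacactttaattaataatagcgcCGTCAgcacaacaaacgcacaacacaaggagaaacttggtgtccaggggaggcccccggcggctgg
The PMAIP1 window was 71.3% G or C and held 4 GC boxes, at -146, -106, -94 and -82 from the start (the first base of each match, with the start as 1), and a CRE half-site at -55. The HRK window was 66.3% G or C and held GC boxes at -200 and -58, an ATF4 composite element at -75 and a CRE half-site at -16. Of 35116 annotated promoters of this length, 45% held a GC box, 24.6% a CRE half-site and 3.62% an ATF4 composite element. Promoters were found for 9 members (not MCL1), and 8 of them, all but BBC3, held a GC box. The CRE half-site was in 4, PMAIP1, HRK, BAX and BAD, and the ATF4 composite element in 1, HRK. Of the other motifs searched, the p53 half-site was in BAK1 (6.63% of all promoters), the AP-1 site TGANTCA in BBC3 (7.71%) and the FOXO site GTAAACA in BCL2L11 (3.42%). The CRE TGACGTCA, which contains the half-site (1.85%), and the TATA box TATAAA (11.5%) were in none of the 9 windows. A match is a description of these letters, and none of these windows was assayed for binding.

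BID is cut by caspase-8 and so joins the death receptor route to mitochondria. Its brightest probe set (11732218_x_at) overlapped between groups, at 8.06, 8.07 and 8.01 with GFP and 8.07, 8.06 and 8.22 with satellite alpha, and did not pass (log2 difference 0.07, SE 0.06, limma adjusted p = 0.407). Dimmer BID probe sets, 11732217_a_at and 11724046_a_at, did pass. The first read 7.92, 7.89 and 7.86 with GFP and 8.08, 8.07 and 8.17 with satellite alpha, higher by 0.22 (SE 0.05, limma adjusted p = 0.0161). The second read 7.94, 7.98 and 7.95 against 8.15, 8.08 and 8.19, a difference of 0.18 (SE 0.05, limma adjusted p = 0.0331). All 4 BID probe sets had a positive difference, from 0.07 to 0.22. The call of 11732217_a_at was lost without GFP replicate 3 (0.20, limma adjusted p = 0.0557), and that of 11724046_a_at held only without SATalpha replicate 2 when single arrays were left out (0.16 to 0.21). BID as the mean of its 4 probe sets rose by 0.15 (limma adjusted p = 0.0439). With probe sets that may match several transcripts (names ending in _s_at or _x_at) left out, 11724046_a_at stood for BID. It then passed as higher in the fit over genes (0.18, limma adjusted p = 0.0252).

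BBC3 (PUMA), which binds all anti-apoptotic members, read 7.36, 7.42 and 7.37 with GFP and 7.40, 7.58 and 7.55 with satellite alpha. One SATalpha array lay among the GFP arrays, and the log2 difference of 0.13 did not pass (95% confidence interval -0.01 to 0.26, limma adjusted p = 0.174). Its other probe set differed by 0.08 and overlapped as well.

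BCL2L11 (BIM), a BH3-only activator of BAX and BAK1 with many splice forms, had 14 probe sets, and 11 of them lay below the floor of tested probe sets (a mean log2 level of 4.61). The brightest read 6.51, 6.42 and 6.51 with GFP and 6.56, 6.53 and 6.45 with satellite alpha, a log2 difference of 0.03 (95% confidence interval -0.12 to 0.18). Of the 3 tested, the largest difference, 0.28 in 11718080_a_at, did not pass (limma adjusted p = 0.150). Its GFP arrays alone had an SD of 0.29, against 0.06 in the SATalpha arrays. Over all 14 probe sets the differences ran from -0.31 to 0.28 with no common direction, and most of them rest on dim signals.

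BAD, which binds BCL2L1 unless it is phosphorylated and held by 14-3-3 proteins, had the smallest difference of the members. Its brightest probe set read 8.96, 8.96 and 8.97 with GFP, and the SATalpha arrays ran from 8.96 to 9.01 (log2 difference 0.02, 95% confidence interval -0.07 to 0.12). The other BAD probe set differed by -0.05, so the sign depended on the probe set, and neither passed.

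Of the effectors, BAX gave 2 different readings. Its brighter probe set (11742537_a_at) read 9.40, 9.35 and 9.34 with GFP and 9.27, 9.30 and 9.37 with satellite alpha. These groups overlapped, and the log2 difference of -0.05 did not pass (SE 0.04, limma adjusted p = 0.438). Its dimmer probe set (11759444_x_at) read 8.85, 8.83 and 8.78 with GFP and 8.46, 8.47 and 8.48 with satellite alpha. Here the groups were apart by 0.297, and the log2 difference was -0.35 (SE 0.05, limma adjusted p = 0.000317).

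The dimmer BAX probe set fell whichever array was left out (-0.36 to -0.33). Within each array its level minus that of the brighter one averaged -0.548 ± 0.019 in the GFP arrays and -0.841 ± 0.041 in the SATalpha arrays (SD, n = 3), and the 3 SATalpha values were all lower (exact permutation p = 0.1, two-sided, the smallest that 3 against 3 arrays allow). A name ending in _x_at marks a probe set that may also match other transcripts. As the mean of both probe sets BAX fell by 0.20 (limma adjusted p = 0.0029). The annotation gives both probe sets the symbol BAX alone, and which transcripts each one reads was not tested.

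BAK1, the other effector, had a brightest probe set at 7.55, 7.46 and 7.39 with GFP and 7.52, 7.56 and 7.59 with satellite alpha. The groups overlapped, and the log2 difference of 0.09 did not pass (95% confidence interval -0.04 to 0.22, limma adjusted p = 0.323). The 4 tested BAK1 probe sets had differences of 0.02 to 0.16. In 2 of them all SATalpha arrays were above all GFP arrays, with limma adjusted p-values of 0.131 and 0.178 over probe sets.

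**Figure D2:**
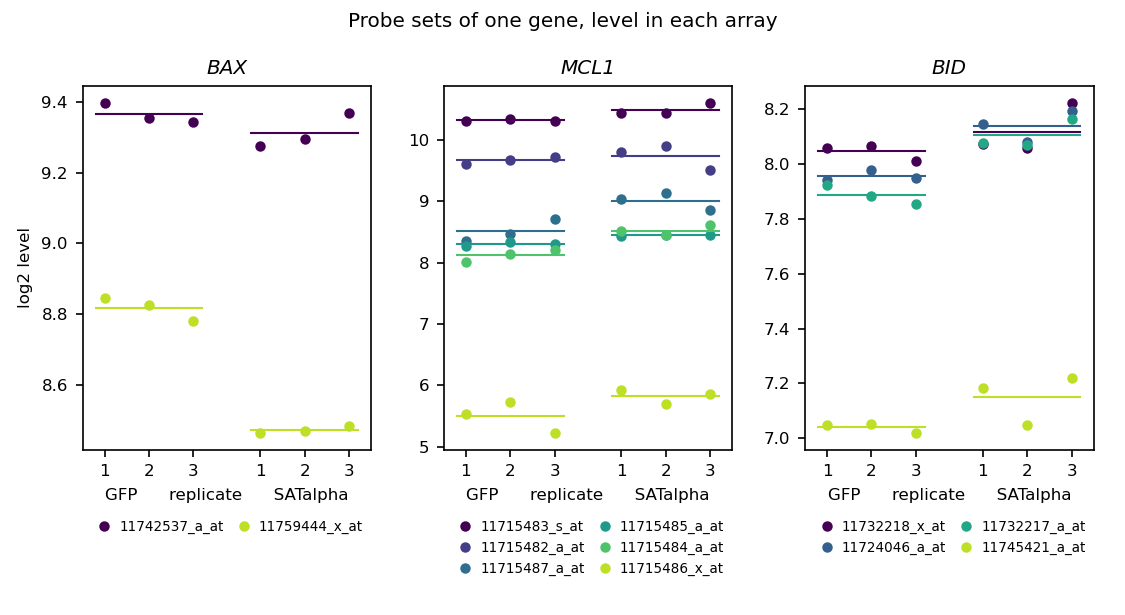
Log2 level of each probe set of BAX, MCL1 and BID in each array, by replicate number within the group; lines are group means, and the vertical scale differs between panels. The dimmer BAX probe set falls from 8.82 to 8.47 while the brighter one overlaps between groups, and the 6 MCL1 probe sets differ in the size of their shift.

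Among the anti-apoptotic members MCL1 rose. MCL1 is a short-lived protein that sequesters BAK1 and is the main partner of NOXA. Its brightest probe set (11715483_s_at) read 10.30, 10.34 and 10.32 with GFP and 10.45, 10.44 and 10.61 with satellite alpha. The groups did not overlap, the gap was 0.095, and the log2 difference was 0.18 (SE 0.05, limma adjusted p = 0.0164), a fold of 1.13. The call was lost without GFP replicate 1 (0.17, limma adjusted p = 0.0793). In the fit over probe sets (limma adjusted p = 0.0231) it was lost without any 1 GFP replicate (0.17, 0.19 and 0.18). It was also lost when probe sets that may match several transcripts were left out and the next brightest, 11715482_a_at, stood for the gene (0.07, limma adjusted p = 0.566).

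Other MCL1 probe sets gave larger differences. The probe set 11715487_a_at read 8.36, 8.47 and 8.72 with GFP and 9.04, 9.14 and 8.85 with satellite alpha, higher by 0.50 (SE 0.09, limma adjusted p = 0.00187). The probe set 11715484_a_at read 8.02, 8.14 and 8.20 against 8.52, 8.45 and 8.61, a difference of 0.40 (SE 0.06, limma adjusted p = 0.000802). In both, all SATalpha arrays were above all GFP arrays, and both passed whichever array was left out. Neither passed in the unmoderated test over probe sets (adjusted p = 0.136 and 0.0739). The remaining 3 had differences of 0.07, 0.14 and 0.33 that did not pass over probe sets. All 6 were thus positive, with sizes from 0.07 to 0.50. The mean of the 6 rose by 0.27 (limma adjusted p = 0.000732).

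BCL2L1, the longer form of which is BCL-XL, showed no such rise. Its brightest probe set read 8.68, 8.61 and 8.71 with GFP and 8.60, 8.56 and 8.57 with satellite alpha. The SATalpha arrays were all lower by a gap of only 0.0091, and the log2 difference of -0.09 did not pass (95% confidence interval -0.19 to 0.01, limma adjusted p = 0.205). The other BCL2L1 probe sets differed by 0.14 and -0.01 and overlapped, so no direction was shared by its probe sets. For the 7 members that did not pass, the 95% confidence intervals of the brightest probe sets lay between -0.19 and 0.26. Changes up to these sizes could have gone undetected. On simulated data the fit found 43.1% of genes changed by 1.2-fold. Only 200 genes were changed in each simulated run, whereas 2259 passed in these data, so that rate need not hold here.

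Counted by probe set, 29 of the 41 were bright enough to be tested, of which 8 rose, 1 fell and 20 did not pass. Over all 29576 tested probe sets, 7.84% were called higher and 7.97% lower, and 15.8% were called in all. The 8 that rose came from 4 genes (3 of MCL1, 2 of PMAIP1, 2 of BID and 1 of HRK). Probe sets of 1 gene share its transcripts and are not independent, so the count is a description. The groups did not overlap in 14 of the 29 (11 higher and 3 lower), against 33.7% of all tested probe sets (16% higher and 17.8% lower). In BAX, MCL1 and BID some probe sets passed and others did not.

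**Figure D3:**
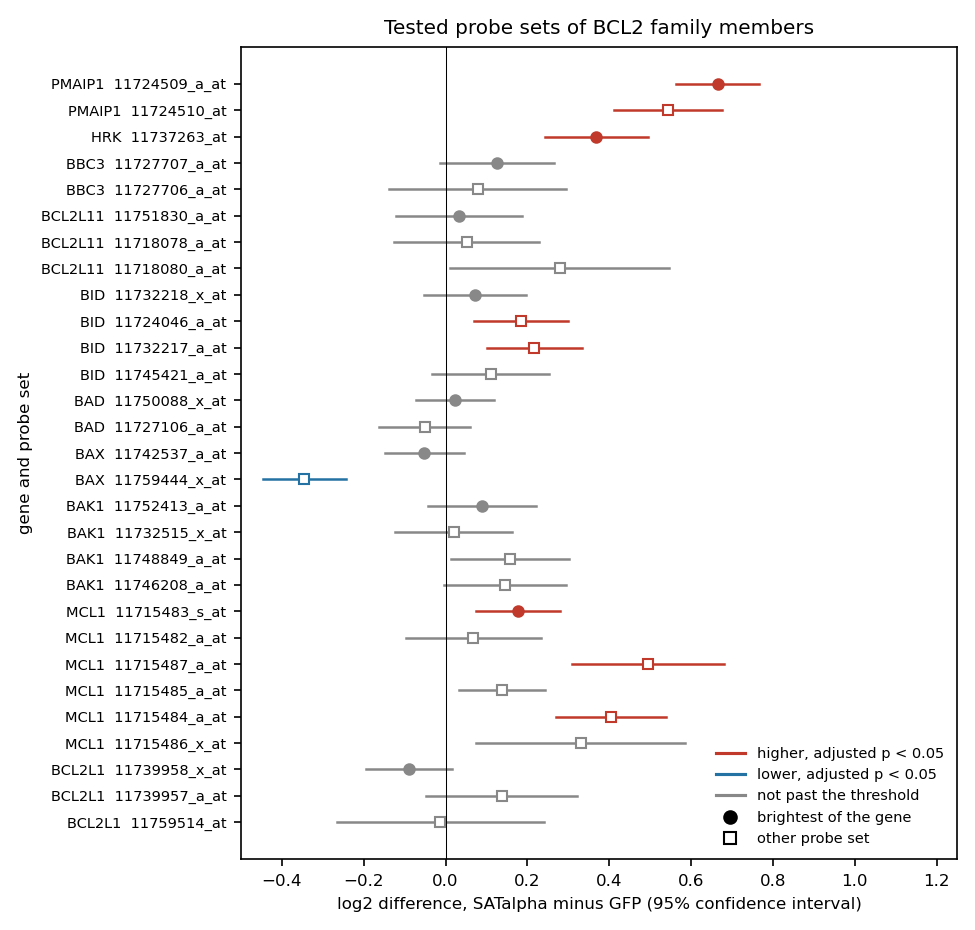
Log2 difference, SATalpha minus GFP, of the 29 tested probe sets of the members, with limma's 95% confidence interval (n = 3 arrays per group); circles are the brightest probe set of each gene and squares the others. All tested probe sets of PMAIP1, HRK, MCL1, BID, BBC3, BAK1 and BCL2L11 have differences to the right of 0. Those called higher are of PMAIP1, HRK, MCL1 and BID, and 1 probe set, of BAX, is called lower.

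Genes whose pattern over the 6 arrays was nearest to that of a member were found by the root-mean-square difference between profiles centred on each gene's own mean. For PMAIP1 the nearest 3 were TENT5A (0.0346 on the log2 scale), DGKH (0.0564) and IER3 (0.0574), which had log2 differences of 0.60, 0.68 and 0.61. For HRK they were GDAP2 (0.0305), HLA-E (0.0313) and GBP3 (0.0333). For MCL1 they were DDX42 (0.0171), NECAP1 (0.0210) and NR2C2 (0.0215). With 6 arrays in 2 groups this measure mainly picks genes with a difference of like size.

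The rest of the BCL2 family showed 1 gene higher and 1 lower of 7 tested, with 4 others below the floor, among them BCL2A1 (2.49). Among all tested genes, 7.72% passed as higher and 13% as lower. BCL2L13, a mitochondrial protein with BCL2 homology that also serves as a mitophagy receptor, rose from 9.56 ± 0.03 to 9.80 ± 0.06 (SD, n = 3), so the log2 difference was 0.24 (SE 0.04, limma adjusted p = 0.00157). Its other 6 probe sets ran from -0.77 to 0.18, and as the mean of all of them it was lower (-0.14, limma adjusted p = 0.0335), so its direction is uncertain. BIK, a BH3-only protein of the endoplasmic reticulum, fell from 5.63 ± 0.09 to 5.32 ± 0.09 (SD, n = 3), by 0.30 (limma adjusted p = 0.0319), near the floor. Its other 2 probe sets differed by -0.57 and 0.09, and the mean of its probe sets was lower (-0.26, limma adjusted p = 0.0196). Leaving out single arrays, BIK passed only without SATalpha replicate 1 (-0.35 to -0.25). BCL2 itself was dim (5.59) and differed by 0.05 (limma adjusted p = 0.775), and the anti-apoptotic BCL2L2 differed by 0.13 (limma adjusted p = 0.219).

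Downstream of the pore, 2 of 13 tested genes of mitochondrial release and execution fell and the other 11 did not pass, with a median log2 difference of -0.05. The share lower among all tested genes was 13%. Endonuclease G (ENDOG), a mitochondrial nuclease, fell from 7.79 ± 0.05 to 7.51 ± 0.02 (SD, n = 3), by 0.27 (limma adjusted p = 0.00316). DIABLO (SMAC), which relieves caspases of their inhibitors, fell by 0.17 (limma adjusted p = 0.012). Its difference was of like size but narrowly missed the threshold without GFP replicate 3 (-0.15, limma adjusted p = 0.0525). The same held without SATalpha replicate 1 (-0.16, limma adjusted p = 0.0545). Cytochrome c (CYCS), the activator of the apoptosome, differed by 0.03 (limma adjusted p = 0.614). These calls rest on the brightest probe set of each gene. Other probe sets ran from 0.07 to 0.66 in XIAP, -0.16 to 0.43 in BIRC5 and -0.27 to -0.03 in HTRA2. The list's 2 other genes were not analysed here.

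Among 19 genes that act on members at the protein level, 1 rose and 1 fell, with a median of -0.03. Over all tested genes 20.8% passed, 7.72% as higher and 13% as lower. DYNLL2, a dynein light chain that binds the BH3-only protein BMF, rose by 0.29 (limma adjusted p = 0.00102), and its other probe set differed by 0.26. AKT1, the kinase that phosphorylates BAD, fell by 0.22 (limma adjusted p = 0.0147). AKT1 no longer passed once GFP replicate 1 (-0.22) or else SATalpha replicate 1 (-0.17) was removed. Differences in the 2 dimmer AKT1 probe sets were -0.04 and -0.03. Of ubiquitin ligases and deubiquitinases that set MCL1 stability, HUWE1 (-0.06), FBXW7 (0.10) and USP9X (-0.01) did not pass (limma adjusted p = 0.547, 0.392 and 0.919). Their other probe sets ran from -0.24 to 0.20 in HUWE1, 0.07 to 0.12 in FBXW7 and -0.18 to 0.36 in USP9X.

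Transcription factors known to act on members moved in both directions, 4 higher and 4 lower of 15 tested, with a median of -0.06. The shares over all tested genes were 7.72% higher and 13% lower. JUN rose by 0.40 (limma adjusted p = 5.25e-06), although its other probe sets ran from -0.26 to 0.44. ATF4, which drives PMAIP1 under the integrated stress response, rose from 12.65 ± 0.02 to 12.80 ± 0.02 (SD, n = 3), by 0.14 (limma adjusted p = 0.00449). ATF3 and DDIT3, which lie downstream of ATF4 in that response, fell by 0.22 and 0.32 (limma adjusted p = 0.000981 and 0.000488). NFKB1 and IRF1 fell by 0.38 and 0.42 (limma adjusted p = 0.000119 and 0.0025), and with its probe sets averaged IRF1 did not pass (-0.14, limma adjusted p = 0.163). FOXO3, an activator of BCL2L11 and BBC3, and MYC rose by 0.22 and 0.17 (limma adjusted p = 0.0139 and 0.0064) and were named after their values were seen. FOXO3 lost its call without GFP replicate 1 (0.21, limma adjusted p = 0.0603). The list's 2 other genes were not analysed here.

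**Figure D4:**
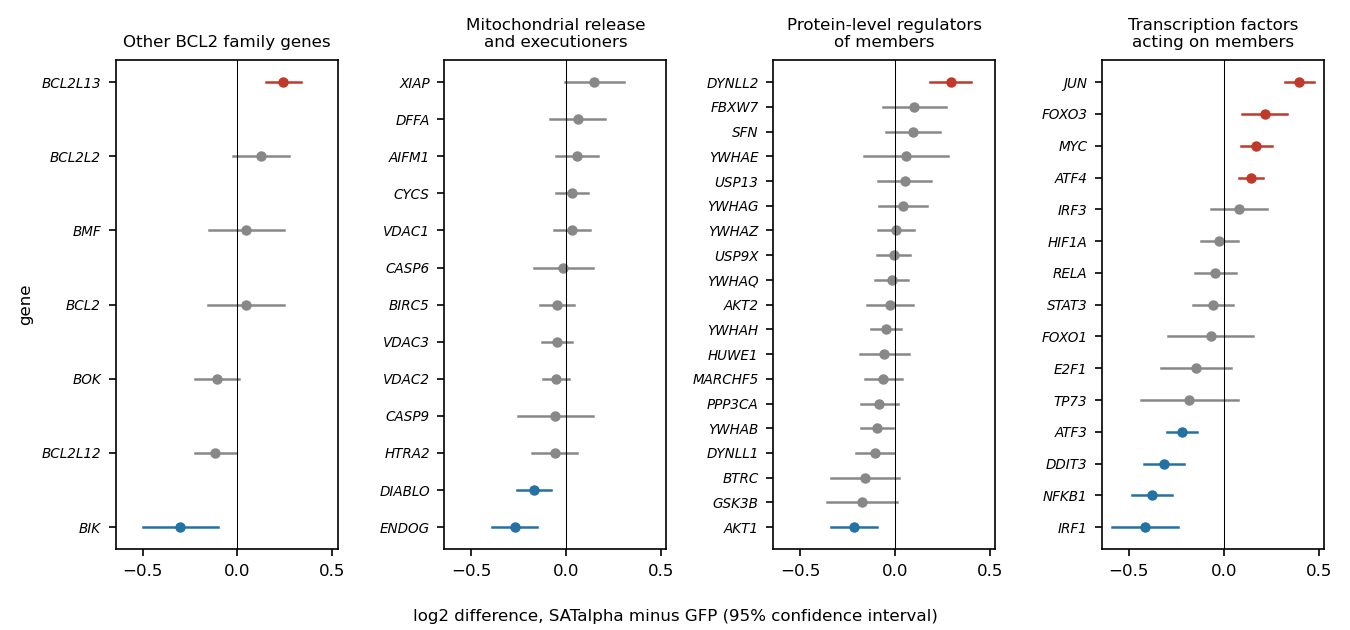
Log2 difference, SATalpha minus GFP, with limma's 95% confidence interval, for the tested genes of 4 lists around the BCL2 family (n = 3 arrays per group); red points passed as higher, blue as lower and grey did not pass. The called genes number 1 higher and 1 lower among other BCL2 family genes and among protein-level regulators, 2 lower among genes of release and execution, and 4 higher and 4 lower among transcription factors. Of all tested genes, 7.72% passed as higher and 13% as lower.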

How the data were processed

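The authors deposited a table of log2 expression values for 49372 probe sets (79 of them controls) on 6 arrays, already normalized between arrays. The log base was read from the values. MAS5 and RMA appear in the submitters' processing notes, and which of them made these values is not stated there. The sources used here give no version, background setting or build. No detection calls were available from scanner files, and RMA, if used, understates differences of dim transcripts. The number of arrays limits the precision.

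A gene was read by its brightest probe set (mean of 6 arrays), and the dimmest 40% of genes were left out. SATalpha and GFP were compared with limma 3.58.1 in R 4.3.3 (lmFit, eBayes, trended variance), and p-values were adjusted by Benjamini-Hochberg across 10879 genes. A second fit ran over 29576 non-control probe sets. On simulated data (10 runs over 10879 genes, 200 of them changed), the fit over genes recovered 43.1%, 89.6% and 99.4% of genes changed by 1.2, 1.5 and 2-fold. Of its calls, 4.42% were false. More genes passed in the real data, so these rates need not hold there. All members were named, and of 4 other lists the called genes, up to 6 per list by smallest p. Other genes of those lists were chosen after their values were seen. Members and lists were chosen with earlier results of these data known. Platform symbols were used as given.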

Additional observations from a re-analysis of the deposited data

How the results depend on the processing

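Over the 10 members, 156 of 168 refitted values kept their direction and their side of the threshold, 5 lost the call, 3 gained it and 4 changed sign. Direction could not change where only the filter, block, moderation or variance trend differed, since the log2 difference is then the same number. Many of the values kept were those of members not past the threshold, and probe sets other than the brightest were not counted here. PMAIP1 kept its call under all 17 alternatives (0.60 to 0.70), and HRK lost it only in the unmoderated test. MCL1 lost it in that test, with no mean-variance trend (limma adjusted p = 0.0743), without GFP replicate 1 and without probe sets that may match several transcripts. The sign of BCL2L1 turned with the mean of all probe sets (0.012) and without the latter probe sets (0.14), that of BAD under the same settings (-0.014 and -0.051), and that of BCL2L13 with the mean of all probe sets (-0.14). The 3 higher members became 1 in the unmoderated test, 1 with a fold of at least 1.5, 2 (without MCL1) with no mean-variance trend, 4 (with BID) with the mean of all probe sets, and 8 probe sets when probe sets were tested. Without probe sets that may match several transcripts the count stayed at 3, but BID (0.18, limma adjusted p = 0.0252) took the place of MCL1. The 0 lower members became 1 (BAX) with the mean of all probe sets and 1 probe set when probe sets were tested. Over all genes, 2259 passed, against 4678 when probe sets were tested, 717 in the unmoderated test and 89 with a fold of at least 1.5. Without single arrays the count was 1209 to 2527, and 3 members were higher in each such fit but that without GFP replicate 1, which gave 2. With the replicate number as a block, 1300 genes passed and the same count of members, 3 higher and 0 lower. Deviations of same-numbered arrays correlated by -0.0035, -0.24 and -0.29, so the numbers were not taken as pairs. Probe set calls of BID, and that of the brightest MCL1 probe set, were lost with the block (limma adjusted p = 0.0969, 0.0615 and 0.0594), and ATF4 lost its call with no mean-variance trend (limma adjusted p = 0.0633). Alternatives for probe sets and the other lists were chosen after seeing the data. Signal over background could not be judged, which limits the 12 dim probe sets that were not tested.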
